A study of Mus musculus with 2 samples.

Results

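The 10 genes Ctla2a, Klrg1, Fgl2, Nrn1, Ednrb, Hopx, Stx11, Ccr3, Il2ra and Foxp3, taken as effector genes of regulatory T cells (Tregs) of injured lung, are described here across the leukocytes of bleomycin-injured and untreated mouse lung. They are 10 of the 24785 genes listed in either library, and all 10 were listed in both. They were chosen by their measured levels in these data, which were high in Tregs of injured lung, so their levels in Tregs and the contrast of Tregs with other T cells are a description with no test. The choice used neither the levels in classes outside T cells nor the differences between the libraries in cells other than Tregs.

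In the study, the RNA of living CD45+ lung cells sorted from wild-type C57BL/6N mice was sequenced cell by cell on the BD Rhapsody microwell system, which tags each captured transcript with a unique molecular identifier (UMI). The BLM group was sampled on day 15 of bleomycin injury, which goes on to pulmonary fibrosis, and the naive group received no treatment. Each group was 1 library made from equal numbers of cells of 3 mice, and the cells of the mice were not told apart. With 1 library per group, no difference between BLM and naive could be tested, and mouse, library and treatment cannot be told apart.

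Tregs are CD4+ T cells that hold immune responses in check and depend on the transcription factor FOXP3 and on interleukin 2 (IL-2) made by other cells. In tissues such as lung they can take on an effector state, in which the IL-33 receptor ST2 (Il1rl1), GATA3 and the growth factor amphiregulin are made, a programme that group 2 innate lymphoid cells (ILC2) also carry. The 10 genes cover this biology from the transcription factors Foxp3 and Hopx, through the receptors Il2ra, Klrg1, Ccr3 and Ednrb, to the secreted, membrane-linked and intracellular proteins Fgl2, Nrn1, Ctla2a and Stx11.

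Levels are given as CPM, the summed UMIs of a gene over the cells of a class, scaled to all UMIs of those cells, with exact Poisson intervals at 95% that cover counting error only. After filtering, 4387 BLM and 3795 naive cells remained, with medians of 2380 and 2692 UMIs per cell, and 22 barcodes occurred in both libraries. The cells were clustered without use of the 10 genes, and classes were named from other markers, so that Treg, ILC2 and the other class names below stand for Treg-like, ILC2-like and so on. The Treg class held 77 BLM cells, 1.76% of the library, and 26 naive cells, 0.685% of the library. The 7 markers that named it, among them Ikzf2, Ctla4 and Tnfrsf4, summed to 5341 CPM in BLM and 3603 CPM in naive Tregs. They summed to 999 CPM in BLM ILC2 and 31.8 CPM in BLM B cells. Since they named the class, they are no check of the name. Foxp3, which the clustering did not see, had a UMI in 60 of 77 BLM cells (77.9%, Clopper-Pearson 67.0 to 86.6) and in 15 of 26 naive cells (57.7%, 36.9 to 76.6), against 0.355% of BLM B cells. Median depth was 2766 UMIs in BLM Tregs and 2846.5 in naive Tregs, and 1573 and 1869 in B cells, which served as the background from free RNA. The 7 natural killer (NK) cell markers summed to 16.5 CPM in BLM Tregs, with 4 at 0, and to 205 CPM in naive Tregs, with 4 at 0. Their part in the differences between these cells was not tested.

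The stretches before the transcription starts of 4 members are shown because they stand for the patterns found below: Hopx, the member highest in Tregs relative to every other class, Ccr3, with 51.1% of its BLM UMIs in Tregs, and Ctla2a and Il2ra, which Tregs had in common with ILC2. Each line gives the 250 bases that end 1 base before the start, 5′ to 3′ on the strand of the gene, from RefSeq on GRCm38.p6. Capitals mark matches to the AP-1 motif TGANTCA or the GATA motif AGATAA on either strand.
Hopx, chr5:77115124-77115373, minus strand: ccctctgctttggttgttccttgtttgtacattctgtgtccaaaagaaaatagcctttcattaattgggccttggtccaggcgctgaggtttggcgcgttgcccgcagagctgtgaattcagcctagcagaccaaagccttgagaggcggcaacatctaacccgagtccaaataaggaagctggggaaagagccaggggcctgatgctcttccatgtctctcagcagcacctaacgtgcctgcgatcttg
Ccr3, chr9:124021721-124021970, plus strand: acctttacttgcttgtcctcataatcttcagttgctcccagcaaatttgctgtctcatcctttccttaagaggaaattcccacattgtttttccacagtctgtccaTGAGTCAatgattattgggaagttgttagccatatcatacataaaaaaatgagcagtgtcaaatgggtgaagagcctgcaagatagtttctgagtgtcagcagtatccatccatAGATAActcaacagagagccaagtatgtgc
Ctla2a, chr13:60936626-60936875, minus strand: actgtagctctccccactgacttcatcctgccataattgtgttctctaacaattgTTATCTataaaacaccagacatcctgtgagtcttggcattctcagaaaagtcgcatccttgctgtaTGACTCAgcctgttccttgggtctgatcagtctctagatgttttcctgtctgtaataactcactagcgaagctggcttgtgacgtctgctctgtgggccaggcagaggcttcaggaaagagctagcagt
Il2ra, chr2:11642542-11642791, plus strand: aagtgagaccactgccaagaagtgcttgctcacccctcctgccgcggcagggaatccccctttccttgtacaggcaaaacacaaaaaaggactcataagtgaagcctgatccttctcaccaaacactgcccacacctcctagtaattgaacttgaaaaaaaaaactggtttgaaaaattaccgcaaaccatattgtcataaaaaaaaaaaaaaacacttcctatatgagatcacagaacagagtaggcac
The stretches of Ccr3 and Ctla2a each held 1 AP-1 and 1 GATA match, and those of Hopx and Il2ra held neither. Among all 32851 windows of this length, 6.75% held an AP-1 match, 9.99% a GATA match and 3.17% a match to the forkhead motif TGTTTAC. RefSeq windows were listed for 8 of the 10 members, not for Klrg1 and Nrn1, and no member's window held the forkhead motif. Beyond these stretches, the Fgl2 window held an AP-1 match and the window of a second Foxp3 start held a GATA match. The windows of Stx11 and Ednrb held none of the 3 motifs. A match describes the letters in the window only.

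Across the 22 BLM classes of 20 or more cells, some members were close to restricted to Tregs and others were shared with innate cells. A gene was called restricted where its CPM in BLM Tregs was at least 4-fold above that of each other class. Hopx and Foxp3 met this, 2 of the 10 members, against 8 of 12364 genes with 20 or more UMIs in the library (0.0647%). The other 6 were Neb, Sh3rf1, Syt11, Tff1, Tnfrsf4 and Tox2. Just inside the 4-fold limit lay Foxp3 at 4.16-fold, and just outside lay Ccr3 at 3.85-fold and Nrn1 at 3.51-fold. Klrg1 was 2.70-fold and Il2ra 1.37-fold above the next class, which was ILC2 for both. The remaining 4 members had a class as high as Tregs or higher: ILC2 for Ctla2a, neutrophils for Fgl2 and Stx11, and interstitial or recruited macrophages for Ednrb. Since members were chosen for high Treg levels, the share of restricted members is a description and nothing is read from its distance to the background. Tregs held 60.5% of all Foxp3 UMIs in the BLM library, 51.1% of those of Ccr3, 48.1% of Nrn1, 47.5% of Klrg1, 30.6% of Il2ra, 22.7% of Hopx, 12.3% of Ctla2a, 7.93% of Stx11, 3.70% of Ednrb and 3.69% of Fgl2.

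**Figure D1:**
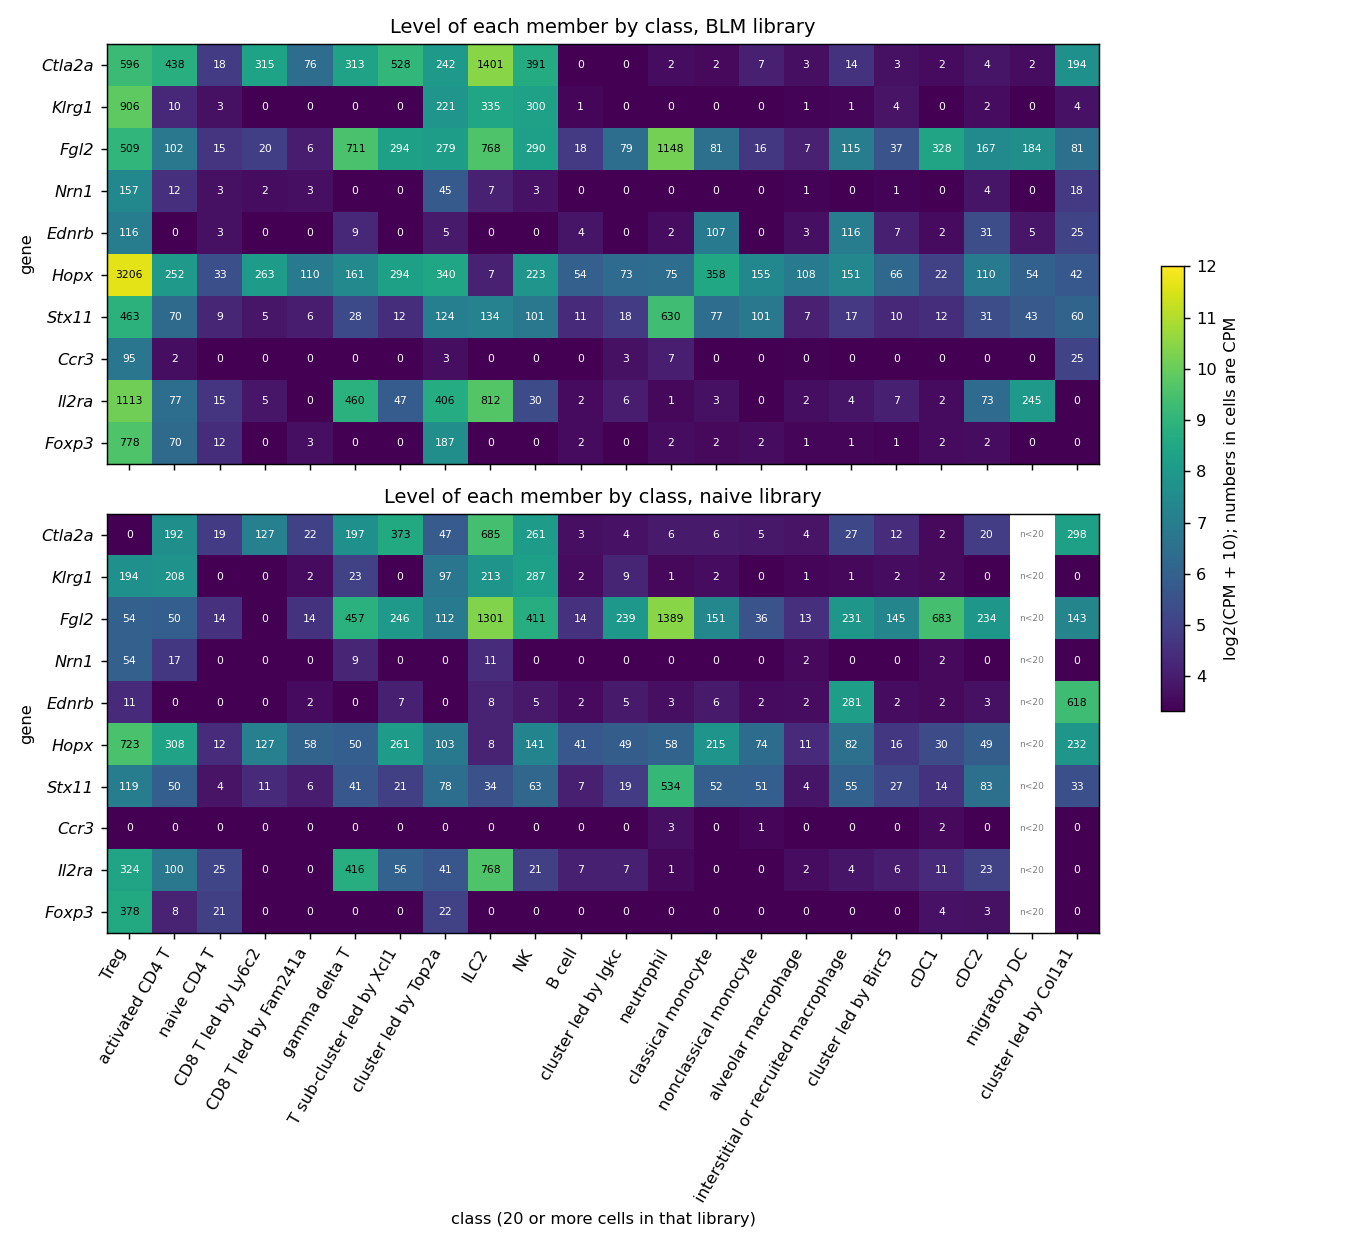
Heat map of the 10 members (rows) in each class (columns) of the BLM library (top) and the naive library (bottom), where colour is log2(CPM + 10) and the printed numbers are CPM, and where a class under 20 cells is left white. The Treg column holds the highest value of its row for Klrg1, Nrn1, Hopx, Ccr3, Il2ra and Foxp3 in the BLM library, while ILC2 lead for Ctla2a and neutrophils for Fgl2 and Stx11.

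Foxp3, the transcription factor that defines the Treg lineage (chrX:7573644-7595245, plus strand, GRCm38, as are all gene positions given), stood at 778 CPM (671 to 897, 188 UMIs) in BLM Tregs and at 378 CPM (263 to 525, 35 UMIs) in naive Tregs. Outside Tregs it was seen mainly in the proliferating cluster led by Top2a, Pclaf and Mki67, at 187 CPM in the BLM and 21.8 CPM in the naive library, and in BLM activated CD4 T cells at 69.8 CPM. Foxp3 had no UMI in ILC2 of either library, which allowed up to 22.4 CPM in the BLM and 11.4 CPM in the naive cells. In the naive library it was the single member that met the 4-fold limit, 17.3-fold above the next class. Foxp3 was thus highest in Tregs in both libraries.

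Hopx, an atypical homeodomain protein that does not bind DNA itself and acts through other factors (chr5:77086988-77115121, minus strand), stood at 3206 CPM (2984 to 3440, 775 UMIs) in BLM Tregs and at 723 CPM (560 to 918, 67 UMIs) in naive Tregs. A UMI was seen in 63 of 77 BLM Tregs and in 16 of 26 naive Tregs, against 8.16% of BLM B cells. The next BLM classes were classical monocytes at 358 CPM, the Top2a cluster at 340 CPM and the T-like sub-cluster led by Xcl1, Klrb1c and Klrc1 at 294 CPM, whose intervals overlapped. ILC2 held 1 Hopx UMI in the BLM and 2 in the naive library, under the level of B cells (53.6 and 41.3 CPM). Hopx was thus high in Tregs, present at a lower level in many T cell and monocyte classes, and below the B cell level in ILC2. Naive alveolar macrophages also lay below B cells, at 10.7 CPM, so the B cell level may lie above free RNA for Hopx.

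Il2ra encodes CD25, the chain that gives the IL-2 receptor its high affinity (chr2:11642807-11693193, plus strand). It stood at 1113 CPM (984 to 1254, 269 UMIs) in BLM Tregs and 324 CPM (218 to 462, 30 UMIs) in naive Tregs. ILC2 held 812 CPM (667 to 980) in the BLM library, just below Tregs with no overlap of the intervals, and gamma delta T cells 460 CPM. In the naive library the order was different, with ILC2 at 768 CPM (666 to 882) and gamma delta T cells at 416 CPM (335 to 511) ahead of Tregs, although the last 2 intervals overlapped. Migratory dendritic cells (DCs) also carried Il2ra, at 245 CPM in the BLM library.

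Klrg1, an inhibitory lectin-like receptor for cadherins that marks differentiated lymphocytes (chr6:122270596-122282882, minus strand), stood at 906 CPM (790 to 1034, 219 UMIs) in BLM Tregs. Outside Tregs it was seen in ILC2 at 335 CPM, NK cells at 300.2 CPM and the Top2a cluster at 221 CPM, and 18 of the 22 BLM classes were under 10 CPM. In naive Tregs it stood at 194 CPM (115 to 307), and 11 of those 18 UMIs lay in 1 cell. Naive NK cells at 287 CPM, ILC2 at 213 CPM and activated CD4 T cells at 208 CPM had intervals that overlapped that of naive Tregs.

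Ccr3 encodes the receptor for eotaxins, best known on eosinophils (chr9:124021972-124031689, plus strand). It was sparse, with 23 UMIs in 10 of 77 BLM Tregs (95.2 CPM, 60.3 to 143) and none in 26 naive Tregs, which allowed up to 32.4 CPM. The only other BLM class whose interval lay above that of B cells was the unnamed cluster led by Col1a1, Mgp and Sparc. It held 7 UMIs (24.7 CPM, 9.93 to 50.9). The marker score was 4.07 for basophil or mast cells and 3.88 for stromal cells over 73 BLM and 31 naive cells. Cells with 3 or more basophil or mast cell markers were then set apart, which left 69 BLM and 21 naive cells. Among the leading genes before that step were the stromal markers Col1a1, Mgp, Sparc, Col3a1 and Col1a2. The score was not taken again, so no name was given to the cells left. The BLM cells left had a median of 862 UMIs. Neutrophils held 6.71 CPM from 8 of 997 cells. Cells with 3 or more eosinophil markers numbered 0 in the BLM and 1 in the naive library, and cells with 3 or more basophil or mast cell markers 4 and 10. None of these cells held a Ccr3 UMI, so few cells passed as the cell types best known for this receptor. Shallow cells of these types may have missed the 3 markers.

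Ednrb encodes the endothelin receptor type B (chr14:103814625-103844402, minus strand). It stood at 116 CPM (77.0 to 167, 28 UMIs) in BLM Tregs, in 13 of 77 cells, and at 1 UMI in naive Tregs. Interstitial or recruited macrophages (116 CPM, 107 to 126) and classical monocytes (107 CPM, 83.8 to 136) of the BLM library had intervals that overlapped that of Tregs. No other T-like sub-cluster of 20 or more cells, nor ILC2 or NK cells, reached 10 CPM in the BLM library. Among T-like cells Ednrb was therefore seen almost only in Tregs, and among all leukocytes it was shared with monocyte-derived classes.

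Fgl2, a fibrinogen-like protein that Tregs can secrete as a suppressive factor (chr5:21372642-21378374, plus strand), stood at 509 CPM (423 to 607, 123 UMIs) in BLM Tregs and at 53.9 CPM (17.5 to 126, 5 UMIs) in naive Tregs. Tregs ranked 4 of 22 in the BLM library, behind neutrophils at 1148 CPM, ILC2 at 768 CPM and gamma delta T cells at 711 CPM. In the naive library they ranked 14 of 21 classes. The intervals of ILC2, gamma delta T cells and Tregs overlapped between neighbours. Conventional DCs of type 1 (cDC1) followed at 328 CPM, and B cells stood at 17.9 CPM.

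Nrn1, neuritin, is a small protein anchored to the membrane by a lipid (chr13:36725361-36735131, minus strand). It stood at 157 CPM (111 to 216, 38 UMIs) in BLM Tregs, in 15 of 77 cells, and at 53.9 CPM (17.5 to 126, 5 UMIs) in naive Tregs. The Top2a cluster followed with 44.8 CPM, and 16 of its 17 UMIs lay in cells with a Foxp3 UMI. Of the 22 BLM classes, 18 were under 10 CPM, so Nrn1 was limited to few classes in both libraries.

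Ctla2a, an inhibitor of cathepsin L-like proteases (chr13:60934155-60936625, minus strand), stood at 596 CPM (502 to 701, 144 UMIs) in 45 of 77 BLM Tregs. No naive Treg held a Ctla2a UMI, which allowed a share of cells with a UMI of up to 11.5% of these 26 cells and a level of up to 32.4 CPM. This limits the cells in which the transcript was caught, not the cells that express it. ILC2 led both libraries, at 1401 CPM (1208 to 1617) in the BLM and 685 CPM (588 to 792) in the naive library. In the BLM library the Xcl1 sub-cluster at 528 CPM, activated CD4 T cells at 438 CPM, NK cells at 391 CPM, CD8 T cells led by Ly6c2 at 315 CPM and gamma delta T cells at 313 CPM followed Tregs, each interval overlapping the next. The unnamed Col1a1 cluster also carried it, at 194 CPM (146 to 253) in the BLM and 298 CPM (196 to 433) in the naive library. Ctla2a was thus seen in many lymphoid classes and in this cluster, and B cells, neutrophils and alveolar macrophages stayed under 10 CPM in both libraries. Its paralog Ctla2b had 4 UMIs in the BLM and 3 in the naive library.

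Stx11, a syntaxin needed for granule release by cytotoxic lymphocytes (chr10:12938209-12964298, minus strand), stood at 463 CPM (382 to 558, 112 UMIs) in BLM Tregs and 119 CPM (59.2 to 212, 11 UMIs) in naive Tregs. Neutrophils led both libraries, at 630.2 CPM (588 to 674) and 534 CPM (482 to 590). Next to Tregs came ILC2 at 134 CPM and the Top2a cluster at 124 CPM in the BLM library, and NK cells stood at 101 CPM. Among lymphocytes, Tregs were therefore the highest class. The 7 neutrophil markers, in sum 42926 CPM in BLM neutrophils, came to 132 CPM in BLM Tregs and 194 CPM in naive Tregs, beside 148 CPM in B cells of either library.

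The same members were set against ILC2, the class outside T cells that carries the ST2 programme. A total of 7 members were 2-fold or more higher in BLM Tregs than in BLM ILC2, 7 of 10, beside 496 of 3184 genes (15.6%), but the choice of members on Treg levels fixed much of this and nothing is read from it. The count was 3 (Nrn1, Hopx and Foxp3) with doublets kept and also at resolution 0.3, where Tregs and activated CD4 T cells formed 1 sub-cluster. On the log2 scale the differences were 8.75 (6.27 to 14.05) for Hopx, 4.4 (1.83 to 9.74) for Nrn1, 1.79 (1.06 to 2.59) for Stx11 and 1.43 (0.97 to 1.93) for Klrg1. The Hopx and Nrn1 ratios rest on 1 UMI each in ILC2. As bounds with 3 UMIs in place of 0 in ILC2, Foxp3 was 34.8-fold, Ednrb 5.18-fold and Ccr3 4.26-fold higher in Tregs. Their exact log2 intervals began lower, at 4.81, 1.98 and 1.67. Il2ra differed by 0.45 (0.13 to 0.79). Fgl2 was lower in Tregs by −0.59 (−0.98 to −0.20), and Ctla2a by −1.23 (−1.56 to −0.91), the single member 2-fold or more lower, beside 242 of 3184 genes (7.6%). Il1rl1 itself stood at 1225 CPM in BLM Tregs and 1118 CPM in BLM ILC2, a log2 difference of 0.13 (−0.16 to 0.42).

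Against naive ILC2, naive Tregs stood elsewhere for these shared genes. Il2ra was lower by −1.25 (−1.85 to −0.69) and Fgl2 by −4.59 (−6.22 to −3.36), while Klrg1 differed by −0.13 (−0.99 to 0.65). Ctla2a was 21.2-fold lower as a bound, with an exact log2 interval ending at −4.09. Hopx at 6.57 (4.66 to 9.64), Stx11 at 1.79 (0.39 to 3.24) and Foxp3 kept to the Treg side in both libraries. Foxp3 was 33.1-fold higher as a bound, with an exact log2 interval beginning at 4.67. Of the 9 ILC2 markers, summing to 10734 CPM in BLM ILC2, 7 had UMIs in BLM Tregs, for 3761 CPM in sum, and Il5 and Arg1 were at 0. In naive Tregs 7 had UMIs too, for 1424 CPM in sum, and Il13 and Il5 were at 0. The 6 T cell markers summed to 962 CPM in BLM ILC2 and 4629 CPM in BLM Tregs. Most of both Treg sums came from Il1rl1, Gata3, Il7r and Areg, which are also in the Treg lists below. The part of admixed cells in these values was not tested.

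**Figure D2:**
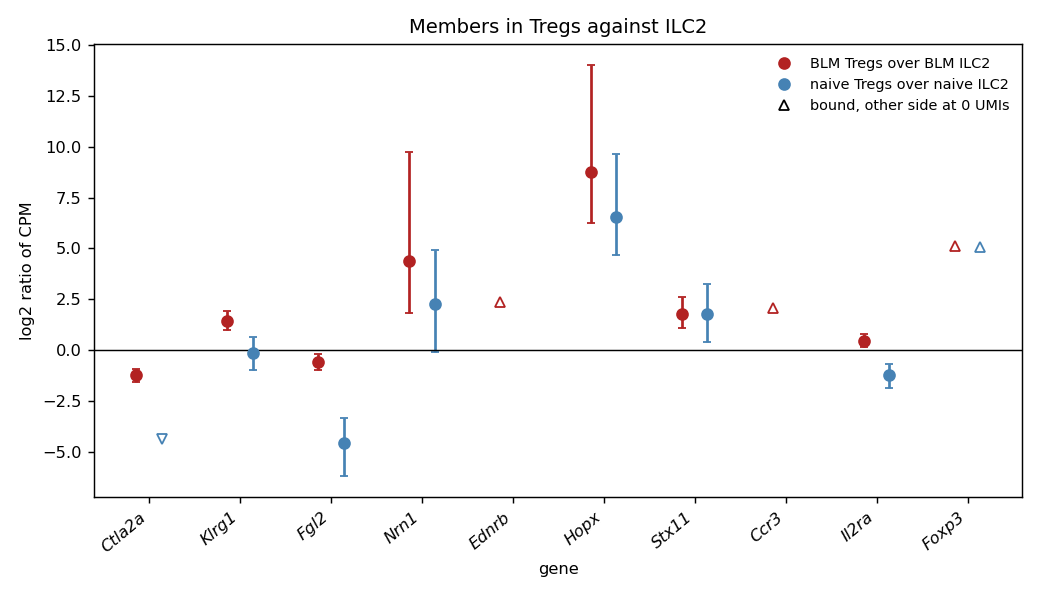
The log2 ratio of CPM of Tregs over ILC2 (vertical axis) for each member (horizontal axis) in the BLM and the naive library, with exact 95% intervals of counting error and with open triangles for bounds where 1 side had 0 UMIs. Hopx, Stx11 and Foxp3 lie above 0 in both libraries, and Ctla2a and Fgl2 lie below 0 in both.

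Between BLM and naive Tregs, the rule itself used the difference, so it is given as a description. All 10 members were 2-fold or more higher in BLM Tregs, beside 334 of 3015 genes with 20 or more UMIs (11.1%). The log2 ratios were 3.42 (0.83 to 8.78) for Ednrb, from 28 UMIs against 1, 3.24 (1.98 to 4.89) for Fgl2, 2.22 (1.53 to 3.0) for Klrg1 and 2.15 (1.79 to 2.53) for Hopx. Stx11 followed at 1.97 (1.07 to 3.01), Il2ra at 1.78 (1.23 to 2.38), Nrn1 at 1.54 (0.20 to 3.25) and Foxp3 at 1.04 (0.52 to 1.61). As bounds with 3 UMIs in place of 0 in naive Tregs, Ctla2a was 18.4-fold and Ccr3 2.94-fold higher, with exact log2 intervals beginning at 3.89 and 1.14. The median over the members was 2.19, or 2.06 with the last 2 at their bounds, and the median over all 3015 genes was 0.02. When the libraries were clustered without integration, which left 9 naive Tregs, 6 members kept a 2-fold difference, and Ednrb (0.52), Klrg1 (0.87), Foxp3 (0.52) and Ccr3 (bound 0.24) did not. Klrg1 also fell below 2-fold with doublets kept (0.86) and at resolution 0.3 (0.81). Foxp3 did so with doublets kept (0.90) and with the members kept among the variable genes (0.76). The summed level of the ILC2 markers, 3761 CPM in BLM and 1424 CPM in naive Tregs, moved the same way as the members. Most of both sums came from Il1rl1 (1225 and 205 CPM), Gata3 (960 and 345), Il7r (943 and 680) and Areg (546 and 97.1). These genes are also in the Treg lists below. The part of the ILC2 markers was not tested. In these summed cells, a higher share of effector cells among Tregs and more RNA per cell cannot be told apart.

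**Figure D3:**
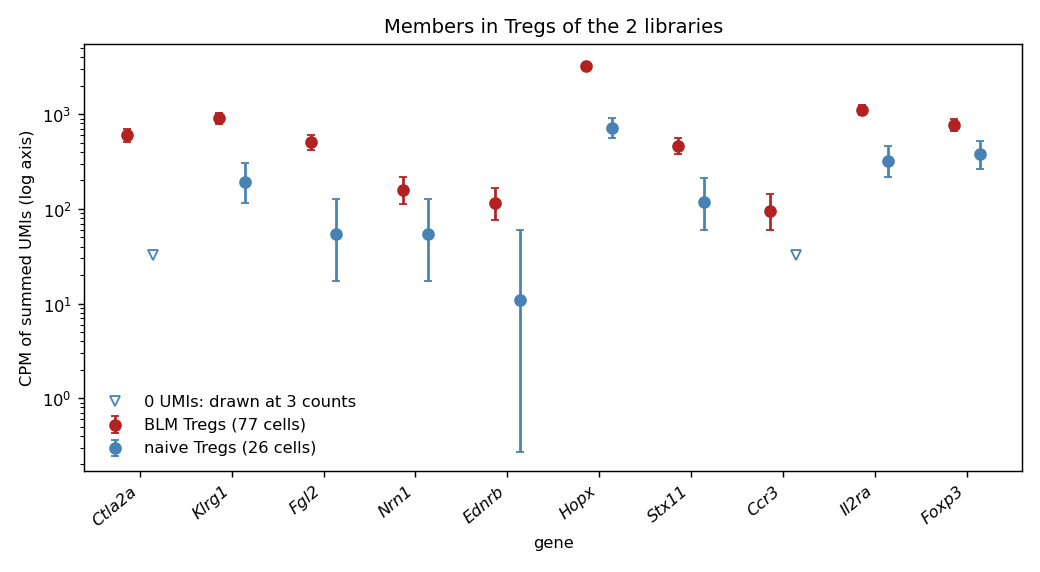
CPM of each member in BLM Tregs (77 cells) and naive Tregs (26 cells) on a log axis, with exact Poisson 95% intervals and with open triangles at the level of 3 counts where no UMI was seen. The intervals of the 2 libraries do not overlap for Klrg1, Fgl2, Ednrb, Hopx, Stx11, Il2ra and Foxp3.

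The share of cells with a Foxp3 UMI differed between the 2 Treg classes, so the ratios were also taken over those cells alone, 60 BLM and 15 naive cells. Foxp3 then differed by 0.46 (−0.07 to 1.02), below 2-fold. The ratios were 2.50 (1.24 to 4.15) for Fgl2, 1.78 (1.09 to 2.56) for Il2ra, 1.74 (1.33 to 2.18) for Hopx, 1.51 (0.46 to 2.76) for Stx11 and 1.43 (0.73 to 2.21) for Klrg1. Ctla2a remained 11.1-fold and Ccr3 1.53-fold higher as bounds, with exact log2 intervals beginning at 3.15 and 0.17. The intervals of Nrn1 (−0.62 to 3.46) and Ednrb (−0.07 to 7.92) held 0. Since these cells were selected on Foxp3, its own ratio among them was narrowed by the selection and nothing is read from it.

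Set against BLM T-like cells of the other sub-clusters, a contrast that the rule also used, all 10 members were 2-fold or more higher in Tregs, beside 849 of 7737 genes (11%). The log2 ratio was lowest for the shared genes Ctla2a at 1.23 (0.95 to 1.5) and Fgl2 at 2.01 (1.68 to 2.33), and highest for Klrg1 at 8.13 (6.98 to 9.59), where the 725 other cells held 6 UMIs. Between these lay Il2ra at 3.89, Hopx at 4.17, Stx11 at 4.32, Nrn1 at 5.18, Foxp3 at 5.45, Ednrb at 6.16 and Ccr3 at 7.46. In the naive library, 7 members had 20 or more UMIs and 5 of them were 2-fold or more higher in Tregs, beside 891 of 7671 genes (11.6%). These were Foxp3 at 5.75 (4.77 to 6.83), Klrg1 at 3.42 (2.50 to 4.30), Hopx at 3.09 (2.65 to 3.52), Stx11 at 3.02 (1.85 to 4.10) and Il2ra at 2.16 (1.53 to 2.74). Fgl2 differed by −0.75 (−2.39 to 0.50). As a bound, Ctla2a was 2.96-fold lower in naive Tregs than in other naive T-like cells, with an exact log2 interval ending at −1.25. By 2-fold or more, 1384 of 7671 genes (18%) were lower there. Nrn1, Ednrb and Ccr3 had too few UMIs to be ranked there. These 5 ratios are against the sum of the other T-like cells, and single classes stood above naive Tregs for Klrg1 (activated CD4 T cells, 208 against 194 CPM, with 11 of the 18 Treg UMIs in 1 cell) and for Il2ra (gamma delta T cells, 416 against 324 CPM). Fgl2 was the least stable member in this contrast. In the BLM library its ratio fell to 0.89 with doublets kept and to 0.99 at cluster resolution 0.3, and in the naive library it joined the members 2-fold or more higher, 6 in all, when the libraries were clustered without integration.

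Outside Tregs, the members did not move together between the libraries. The rule did not use these differences, but BLM levels in the other T-like cells entered it through the contrast with Tregs. The T-like classes below are therefore not independent of the choice. Of 77 combinations of member and class with 20 or more UMIs, the interval of counting error of the log2 ratio of BLM over naive lay above 0 in 31 (40.3%) and below 0 in 18 (23.4%), beside 9.31% and 13.6% of 113949 combinations over all genes. Hopx was higher in the BLM library in 11 of 18 classes in this sense, and lower in 1. The widest gap was in alveolar macrophages, with 10.7 CPM in the naive and 108 CPM in the BLM library (log2 ratio 3.33, 2.97 to 3.73) and a UMI in 229 of 459 and 53 of 582 cells. B cells differed by 0.38 (−0.18 to 0.93) for Hopx. Over all cells outside Tregs, Hopx differed by 1.26 (1.15 to 1.38). Higher Hopx in the BLM library was therefore seen well beyond Tregs.

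Ctla2a was higher in the BLM library in 7 of 11 classes and lower in 1. The ratio was 1.03 (0.73 to 1.34) in ILC2, 1.19 (0.56 to 1.89) in activated CD4 T cells, 1.31 (0.67 to 2.01) in CD8 T cells led by Ly6c2, 1.79 (0.73 to 2.95) in CD8 T cells led by Fam241a, 0.58 (0.22 to 0.94) in NK cells and 0.67 (0.09 to 1.26) in gamma delta T cells. In interstitial or recruited macrophages it was −0.92 (−1.66 to −0.10), at 14.1 and 26.6 CPM. The classes with higher Ctla2a were lymphoid ones and the Top2a cluster.

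Fgl2 stood the other way, lower in the BLM library in 10 of 17 classes and higher in gamma delta T cells at 0.64 (0.26 to 1.02) and in the Top2a cluster at 1.31 (0.76 to 1.90). The classes with lower Fgl2 included cDC1 at −1.06 (−1.33 to −0.79), interstitial or recruited macrophages at −1.01 (−1.26 to −0.75), ILC2 at −0.76 (−1.09 to −0.44) and neutrophils at −0.28 (−0.39 to −0.16). Across all cells outside Tregs, Fgl2 differed by −0.26 (−0.33 to −0.18). The direction in Tregs, which the choice of members fixed, was opposite to that in most myeloid classes.

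The intervals of Il2ra held 0 in the other classes that carried it most, at 0.08 (−0.27 to 0.42) in ILC2 and 0.14 (−0.28 to 0.57) in gamma delta T cells. It was higher in the BLM library in cDC2, at 1.66 (0.75 to 2.64), and in the Top2a cluster, at 3.32 (2.51 to 4.26). Klrg1 differed by 0.06 (−0.33 to 0.44) in NK cells and 0.66 (0.06 to 1.25) in ILC2. In activated CD4 T cells it was lower in the BLM library by −4.39 (−6.37 to −2.85), with a UMI in 4 of 172 BLM and 9 of 49 naive cells, and 10 of the 25 naive UMIs lay in 1 cell. The direction of Klrg1 in activated CD4 T cells was thus opposite to that in Tregs, but the choice of members entered both sides.

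Ednrb was higher in BLM classical monocytes, at 107 CPM and in 36 of 177 cells, against 5.6 CPM in the naive library (log2 ratio 4.26, 2.97 to 5.93). In interstitial or recruited macrophages it was lower by −1.27 (−1.51 to −1.04), at 116 and 281 CPM. In the Col1a1 cluster it was lower by −4.64 (−6.02 to −3.51), where 37 of the 56 naive UMIs lay in 1 cell. Stx11 was higher in BLM ILC2 at 1.97 (0.74 to 3.31), in nonclassical monocytes at 0.99 (0.37 to 1.60), in alveolar macrophages at 0.90 (0.16 to 1.68) and in neutrophils at 0.24 (0.06 to 0.42), and lower in 3 classes. Foxp3 was higher in the Top2a cluster at 3.10 (1.98 to 4.46) and in activated CD4 T cells at 3.06 (0.47 to 8.42), the latter from 28 UMIs against 1. Outside Tregs, Nrn1 and Ccr3 reached 20 UMIs in no class.

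**Figure D4:**
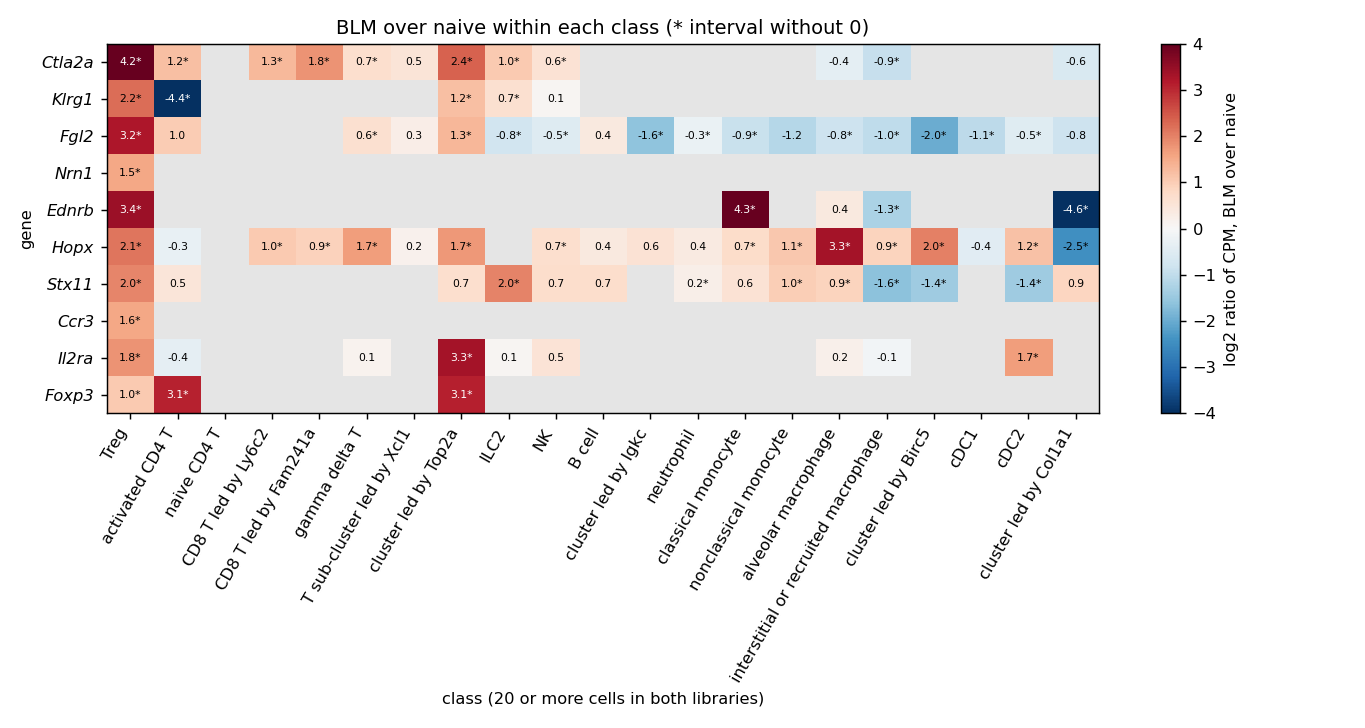
Heat map of the log2 ratio of CPM, BLM over naive (colour), of each member (rows) within each class of 20 or more cells in both libraries (columns), where a star marks an interval of counting error that does not hold 0. Hopx is on the higher side in most classes and Fgl2 on the lower side in most myeloid classes. Both are higher in BLM Tregs, a side that the choice of members fixed.

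The cells of the proliferating Top2a cluster were split by whether they held a Foxp3 UMI. Of the 48 BLM cells in the Top2a cluster, 13 held a Foxp3 UMI. Compared with the other cells of the cluster, these were higher on the log2 scale by 4.76 (2.07 to 10.15) for Nrn1, 3.83 (2.49 to 5.52) for Stx11, 3.58 (2.82 to 4.43) for Hopx, 3.06 (2.44 to 3.73) for Il2ra, 2.44 (1.69 to 3.24) for Klrg1 and 1.25 (0.67 to 1.84) for Fgl2. Ctla2a differed by −0.51 (−1.21 to 0.16), with 65 UMIs in the cells without Foxp3, and these cells also held 44 Fgl2 UMIs (184 CPM). Ednrb had 1 UMI on each side, and Ccr3 1 UMI with and 0 without Foxp3. Hopx in these 13 cells stood at 801 CPM, below the 3206 CPM of BLM Tregs, while Il2ra stood at 907 and 1113 CPM (log2 ratio of Tregs over these cells 0.29, −0.01 to 0.61). The split was made by a sparse gene, and a missing UMI does not show that Foxp3 was absent. Median depth was 8292 UMIs in the cells with and 6004 in those without a Foxp3 UMI. The marker scores of the unnamed cluster were highest for B cells (1.36) and plasma cells (1.3). The 35 cells without a Foxp3 UMI may therefore include lineages other than T cells.

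The number of members with a UMI was counted per cell. With each cell thinned to 1000 UMIs, BLM Tregs held 3.45 members per cell and naive Tregs 1.41, and without thinning 5.08 and 2.46. In all, 2 BLM Tregs were too shallow for the thinning. ILC2 held 1.89 and 1.72 thinned members in the BLM and naive library, gamma delta T cells 1.04 and 0.928, NK cells 1.02 and 0.954, the other T-like cells 0.490 and 0.283, and B cells 0.0817 and 0.0674. Without Foxp3 and Il2ra, BLM Tregs held 2.44 and naive Tregs 0.778. Each mean is the sum of the members' shares of cells with a UMI, so it does not show that members occurred in the same cells. Members were chosen for high levels in BLM Tregs, so nothing is read from these gaps. Before thinning, at least 5 members were seen in 44 of 77 BLM Tregs, in 3 of 26 naive Tregs and in 2 of 725 other BLM T-like cells. The same held for 13 of 48 BLM and 3 of 27 naive cells of the Top2a cluster, and for 3 of 39 BLM and 2 of 114 naive ILC2. The Top2a cluster was deeper, with medians of 6785 UMIs in BLM and 10202 in naive cells. The number ranged from 0 to 9 within BLM Tregs, before thinning and over cells of differing depth.

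**Figure D5:**
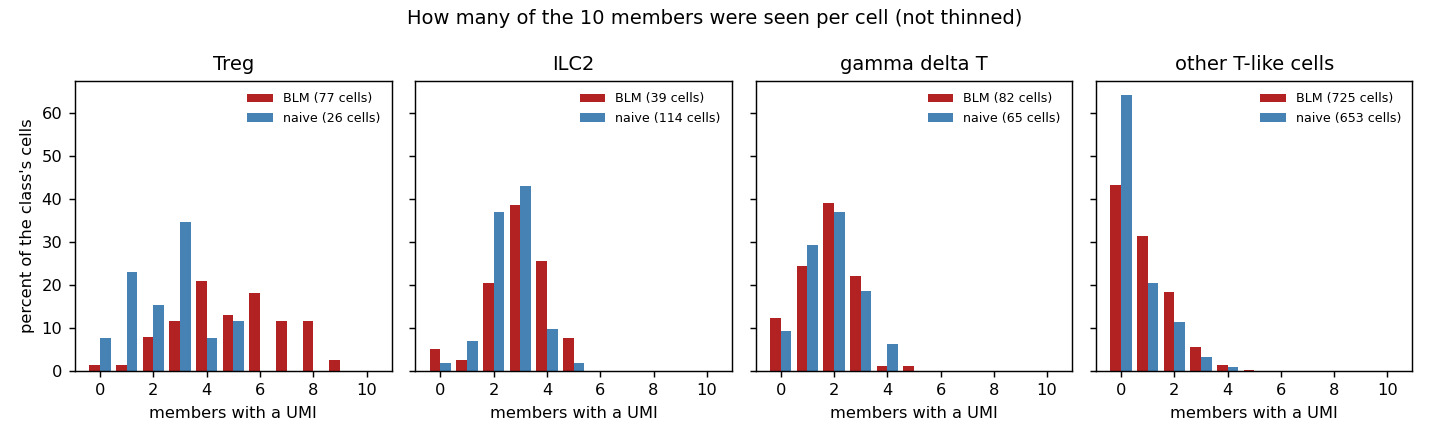
Share of cells (percent, vertical axis) by the number of the 10 members with a UMI, not thinned (horizontal axis), for BLM and naive cells in 1 panel per class. The panels show Tregs, ILC2, gamma delta T cells and the other T-like cells, and the median lies at 5 in BLM Tregs, 3 in naive Tregs and 3 in ILC2 of both libraries.

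Members were also counted in pairs. Over all 77 BLM Tregs, Hopx was seen in 63, Foxp3 in 60, Il2ra in 53 and Klrg1 in 39, so many shared cells arise without any link. All 13 BLM Tregs with Ednrb also held Hopx. Of the 10 with Ccr3, 9 held Klrg1, 9 held Hopx and 9 held Il2ra. Hopx and Foxp3 were seen together in 53 cells and Hopx and Il2ra in 50. Nrn1 was seen in 15 cells and Ccr3 in 10, with 0 cells in common, and Ednrb, seen in 13, shared 1 cell with Ccr3. At these depths a UMI is missed often, so such small counts show which transcripts were caught together and no more.

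Tff1, which encodes a trefoil peptide of the gastric mucosa and is the gene the study followed in lung Tregs, had a UMI in 11 of 77 BLM Tregs and in 0 of 26 naive Tregs. Compared with the 66 BLM Tregs without a Tff1 UMI, these 11 were higher for Ednrb by 1.61 (0.37 to 2.79), for Stx11 by 1.33 (0.73 to 1.91), for Ctla2a by 0.76 (0.18 to 1.30), for Il2ra by 0.59 (0.16 to 1.0) and for Hopx by 0.28 (0.02 to 0.54). The intervals of Klrg1, Fgl2, Nrn1, Ccr3 and Foxp3 held 0. Ccr3 had 1 UMI in the 11 cells and 22 in the other 66. Median depth was 3788 UMIs with and 2709 without a Tff1 UMI, and its part was not tested.

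The partners of the members were read in the same classes. Of the other IL-2 receptor chains, Il2rb stood at 952 CPM in BLM and 712 CPM in naive Tregs and was highest in NK cells (3016 and 3427 CPM), and Il2rg stood at 790.2 and 701 CPM and was highest in ILC2 (909 and 1012 CPM). Il2 itself had 0 UMIs in Tregs of either library, and ILC2 led at 37.3 CPM from 5 UMIs and 41.8 CPM from 11 UMIs. Among ligands of CCR3, Ccl24 stood at 535 CPM in BLM and 164 CPM in naive interstitial or recruited macrophages, Ccl8 at 737 and 61.5 CPM, and Ccl7 at 192 and 424 CPM. Ccl11 was seen in the Col1a1 cluster (208 and 88.3 CPM), and Ccl5 in NK cells (18207 and 14154 CPM). Of the 3 ligands in these macrophages, Ccl24 and Ccl8 were thus higher and Ccl7 lower in the BLM library.

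Edn1, the precursor of endothelin 1, was seen in the Col1a1 cluster at 134 CPM in the BLM and 254 CPM in the naive library and in BLM cDC1 at 48.6 CPM. Ece1, which cleaves endothelin precursors, was highest in the same cluster (155 and 254 CPM), and Ednra had 31 UMIs in the BLM library, none in Tregs. Of the cadherins that KLRG1 binds, Cdh1 was highest in BLM cDC2 at 158 CPM and Cdh2 in BLM migratory DCs at 56.8 CPM. Fcgr2b and Fcgr3, the Fc receptors that bind FGL2, were highest in interstitial or recruited macrophages, at 889 and 486 CPM in the BLM library. Ctsl, a target of the inhibitor family of CTLA2A, stood at 868 CPM in BLM and 149.6 CPM in naive interstitial or recruited macrophages. Of the machinery of STX11, Stxbp2 stood at 66.2 CPM, Unc13d at 49.6 CPM, Rab27a at 57.9 CPM, Vamp8 at 95.2 CPM and Snap23 at 33.1 CPM in BLM Tregs, and Snap23 was highest in neutrophils (752 CPM). These are levels of RNA, and no signalling between classes was measured.

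Wider gene lists placed the members among other Treg genes. Of 30 genes of the tissue effector Treg list, 23 had 20 or more UMIs over BLM and naive Tregs, and 14 were 2-fold or more higher (11.1% of all ranked genes) and 0 lower in BLM Tregs, with a median log2 ratio of 1.27 against 0.02 over all genes. By the nearer end of the interval, Il1rl1 (2.58) and Il1r2 (4.37), a decoy receptor for IL-1, were farthest above 0. Of 11 genes of resting or central Tregs, 9 could be ranked and 6 were 2-fold or more lower in BLM Tregs, beside 226 of 3015 genes (7.5%), with a median of −1.83. Klf2 (−3.01), which keeps T cells in circulation, and Ms4a4b (−2.57) were farthest below 0 by the nearer end of the interval, and Il7r (0.47) was on the other side. Of 10 Treg identity genes, 1 was 2-fold or more higher (Ikzf4 at 1.06, −0.12 to 2.47) and the median was 0.35, with Tnfrsf18 at 0.59 and Ctla4 at 0.45. The effector and resting lists thus stood apart in opposite directions, and the identity list lay between. Tnfrsf18 and Ctla4 are in both the effector and the identity list, so these lists are not independent.

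Against other BLM T-like cells, 24 of 27 ranked effector genes were 2-fold or more higher, beside 849 of 7737 genes (11%), and 0 were lower. Their median was 2.41, led by Il1rl1 at 5.79 and Tnfrsf9 at 5.45. All 11 resting genes could be ranked and 10 were 2-fold or more lower (median −2.94), beside 1175 of 7737 genes (15.2%), with Klf2 at −3.88 and Satb1 at −3.73. Of the 10 identity genes 6 were 2-fold or more higher, beside the same 11% of all genes. Their median was 1.47, with Ikzf4 at 4.01 and Ikzf2 at 3.86, and the median over all genes was 0.00. The clusters were formed from these genes among others, and Tnfrsf9, Ikzf4 and Ikzf2 are among the markers that named the class. The counts therefore describe the Treg class and test nothing.

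The genes whose levels over 43 profiles of class and library were most like each member are given as a description, since profiles of 1 library share their depth and free RNA. By Pearson correlation of log2(CPM + 10) over 11945 genes, Foxp3 was closest to Tnfrsf4 (r = 0.88), Nrn1 (0.85) and Ncmap (0.85), and Nrn1 in turn to Foxp3 (0.85), Ncmap (0.83) and Neb (0.83). Il2ra was closest to Pdcd1 (0.85), Cxcr6 (0.85) and Rora (0.83), and Klrg1 to Rgs16 (0.83), Nrgn (0.76) and Gata3 (0.75). Ctla2a was closest to Rab4a (0.86), Cysltr2 (0.84) and Stk39 (0.81). For the members shared with myeloid cells the genes were others, with Gadd45b (0.75), Chst11 (0.72) and Antxr2 (0.72) for Fgl2, 2310001H17Rik (0.76), Slc22a15 (0.75) and Acod1 (0.74) for Stx11, and Cgnl1 (0.77) and Pmp22 (0.77) for Ednrb. Ccr3 was closest to Plagl1 (0.74), Camk2a (0.69) and Itgb8 (0.69). Hopx had the weakest matches, Gbp3 (0.65), Slc25a51 (0.64) and Tigit (0.63).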

How the data were processed

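Per the file headers, the deposited values were UMI counts, whole numbers per cell and gene with no normalization, made by the authors with the BD WTA Rhapsody Analysis Pipeline 1.8 with UMI error correction on GRCm38 with GENCODE vM19. The tables listed 4714 BLM and 4062 naive barcodes (22490782 and 18019004 UMIs). Cells needed at least 200 genes and no more than 15% mitochondrial UMIs, and the 3% of barcodes with the highest Scrublet score per library were left out (scanpy 1.11.5), because the automatic threshold marked 9 and 54 barcodes. The libraries were integrated and clustered in Seurat 5.3.0 (R 4.3.3, 2000 variable genes, 30 dimensions, resolution 0.5), after the study, and clusters with Cd3e UMIs in 50% or more of cells were sub-clustered (20 dimensions). The 10 members and Tff1 were left out of the variable genes and naming markers. The class names are rebuilt and may not match those of the study. UMIs were summed per class with no test, since each group was 1 library. Poisson, Clopper-Pearson and conditional binomial intervals (Python 3.11.15, SciPy 1.17.1) cover counting error only and were checked on simulated counts. Ratios were ranked from 20 UMIs over both sides, 2-fold or more was counted, and 3 counts stood for 0. Bounds made this way leave out counting error on the other side.

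The members and gene lists were chosen with earlier results of these data known. Named were all members, Ctla2b, Tff1 and Il1rl1, the 2 list genes farthest from 0 on each side by the nearer end of the interval, the 3 genes most like each member among genes with 50 or more UMIs, and partners with 20 or more UMIs. Of the genes most like a member, 1 is not reported here. Other genes, such as the restricted ones, were named after their values were seen. Whether counting used strand was not given in the sources used here, so reads of Fgl2 and Ccdc146, Nrn1 and Fars2, Hopx and Hopxos, or Foxp3 and Ppp1r3f, Ccdc22 and Flicr may not be told apart where they overlap, nor may those of the near-identical Ctla2a and Ctla2b. Gene positions came from a later GENCODE release on the same build. Alternatives were other clusterings, filters, scalings and Treg definitions.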

Additional observations from a re-analysis of the deposited data

Results flagged for a closer look

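In 18 of 77 combinations of member and class outside Tregs (23.4%, beside 13.6% over all genes), the log2 ratio of BLM over naive had an interval of counting error below 0, while the same gene was higher in BLM than in naive Tregs. The choice of members fixed the Treg side of this contrast. BLM levels in other T-like cells also entered the choice, which bears on Klrg1 in activated CD4 T cells. Nothing is therefore read from the opposite directions. With 1 library per group, these differences between classes were not tested. Fgl2 made up 10 of them, with ratios of −0.76 in ILC2, −0.50 in NK cells, −0.83 in alveolar macrophages, −1.06 in cDC1, −0.49 in cDC2, −0.89 in classical monocytes, −1.01 in interstitial or recruited macrophages and −0.28 in neutrophils, and of −1.98 and −1.60 in the clusters led by Birc5 and by Igkc. Stx11 stood at −1.41 in cDC2, −1.41 in the Birc5 cluster and −1.65 in interstitial or recruited macrophages. Ednrb stood at −1.27 in interstitial or recruited macrophages and −4.64 in the Col1a1 cluster, and Hopx at −2.45 in the latter. Klrg1 stood at −4.39 in activated CD4 T cells and Ctla2a at −0.92 in interstitial or recruited macrophages. In the Col1a1 cluster of 21 naive cells, 37 of the 56 Ednrb UMIs lay in 1 cell.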

How the results depend on the processing

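Of 78 recomputed counts and shares, 60 stayed close to the reported value and 0 reversed, and of 215 recomputed ratios of single members, 173 stayed within the interval of the reported ratio, 42 left it and 0 reversed. When doublets were kept, and again at resolution 0.3, Tregs merged with activated CD4 T cells into 1 sub-cluster (244 and 80 cells, and 244 and 76 cells, BLM and naive). Members 2-fold higher than in ILC2 then numbered 3 in both settings (Nrn1, Hopx and Foxp3), the share of cells with a Foxp3 UMI was 28.3% and 22.5% with doublets kept and 29.1% and 19.7% at resolution 0.3, and members per cell were 1.62 and 0.929, and 1.64 and 0.943. No member was restricted (0) with doublets kept, and 1 (Hopx) at resolution 0.8. With the members kept among the variable genes, 3 were restricted (Hopx, Ccr3 and Foxp3), and 9 were 2-fold higher in BLM than naive Tregs, without Foxp3. Without integration, 9 naive Tregs remained, all with a Foxp3 UMI (100%), with 2.08 members per cell, and 6 members were 2-fold higher in BLM Tregs (Ctla2a, Fgl2, Nrn1, Hopx, Stx11 and Il2ra). Without thinning, members per cell were 5.08 and 2.46. At 2-fold in place of 4-fold, 5 members were restricted (Klrg1, Nrn1, Hopx, Ccr3 and Foxp3). Chosen after seeing the data, leaving out the Top2a cluster gave 3 restricted members (Nrn1, Hopx and Foxp3), leaving out the Col1a1 cluster 3 (Hopx, Ccr3 and Foxp3), and leaving out the cell with most UMIs of each gene gave 8 members 2-fold higher in BLM than naive Tregs, without Ccr3 and Foxp3. Cells with a Foxp3 UMI alone gave the same 8. No share over all genes is given for these other settings, so nothing is read from the counts. The cause of these changes was not tested. Depth limits the members with few UMIs in naive Tregs, Ctla2a and Ccr3 with 0, Ednrb with 1, and Fgl2 and Nrn1 with 5 each. No paired analysis was possible because each group was 1 library and the labels carry no replicate numbers.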
